A study of Drosophila melanogaster with 2 samples.

Results

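The 10 genes described here encode subunits of the Tip60/Domino, Ino80 and SAGA complexes. They were looked up by their Ensembl gene name among sites bound by Max-GFP in fly embryos, and all 10 were found among the 13945 protein-coding genes of the main chromosome arms. They were pont, rept, Tip60, dom, Nipped-A, Gcn5, Ino80, E(Pc), MRG15 and YL-1, and each was chosen for its place in these complexes, with earlier results of these data known. Sites came from ChIP-seq of whole embryos, with males and females pooled, collected from 0 to 24 h and carrying a transgene that stably expresses Max, the bHLH-zipper partner of Myc, with GFP at its C terminus. All samples form 1 group: biological replicate 2 and biological replicate 3, with 1 library each. The description names an anti-GFP antibody, while the antibody field names Max; the sequences that drive the transgene and the state of the endogenous Max gene are not given. There was no second group, so no conditions were compared, no test was run, and the values below are descriptions of sites and lists.

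The Tip60/Domino complex joins a histone acetyltransferase, Tip60, to an ATPase, Domino, that exchanges the histone variant His2Av into nucleosomes. The Ino80 complex is a separate ATP-driven remodeller of nucleosomes, and SAGA is a coactivator that acetylates histone H3 through Gcn5. The paired AAA+ ATPases encoded by pont and rept serve both Tip60/Domino and Ino80, and Nipped-A, the fly counterpart of mammalian TRRAP, serves both Tip60/Domino and SAGA. TRRAP is known in mammals as a partner of Myc that brings acetyltransferases to Myc targets.

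Max-GFP sites stood at the starts of 7 of the 10 genes: rept, pont, Ino80, Gcn5, dom, YL-1 and E(Pc), in order of score. Each had a summit, the base of strongest enrichment within a peak, within 500 bp of an annotated transcript start in the authors' list thresholded on the irreproducible discovery rate (IDR), a measure of how alike the replicates rank a peak. Over all protein-coding genes 25.9% had such a promoter peak. Tip60 and MRG15 had weaker summits at their starts, below the IDR list, and Nipped-A had none within 500 bp in any list. In the longer pooled list, labelled as peaks and background for the IDR step, 9 of the 10 had a promoter summit, against 57.2% of all genes. The peak caller's −log10 q-value went down to 0.16 in that list, 0.27 in replicate 2 and 0.07 in replicate 3. Low-ranked summits in these lists therefore need not be bound sites. At the strongest pooled promoter summits of Tip60 and MRG15 it was 1.61 and 1.2. Read depth is unknown, since the lists hold no read counts, and in whole embryos strong binding in few cells and weak binding in many cannot be told apart.

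**Figure D1:**
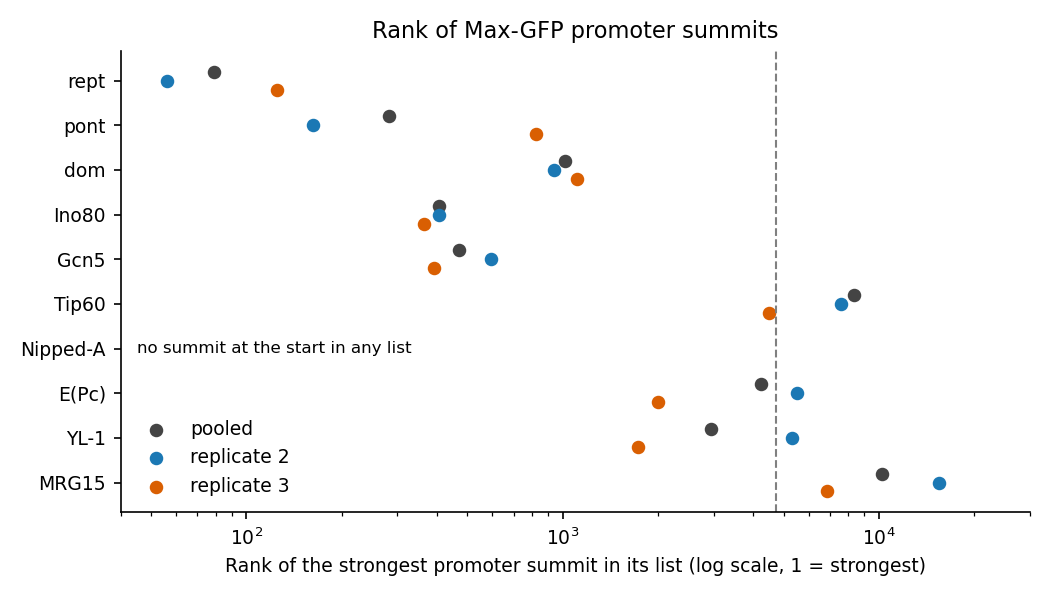
Rank (log scale, 1 = strongest) of the strongest summit within 500 bp of a start of each gene, in the pooled list and in the lists of replicates 2 and 3; the dashed line marks 4712, the length of the IDR list. rept, pont, dom, Ino80 and Gcn5 lie left of the line in all 3 lists, while Tip60, E(Pc) and YL-1 lie left of it in replicate 3 and right of it in replicate 2.

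The DNA at the starts is shown for 5 of the 6 genes whose IDR promoter summit is shared with an opposed gene, dom not being shown, and for Tip60 as a gene with a weaker summit below the IDR list. For rept, pont, YL-1 and Tip60 the whole stretch between the start of the gene and the start of the gene transcribed away from it is printed. For Gcn5 and Ino80, where that stretch is longer than 300 bases, up to 100 bases on each side of the summit are printed, without transcribed bases of an exon. Sequence is from the RefSeq copy of dm6, 5′ to 3′ in the direction of the named gene, and capitals mark any match, on either strand, to the motifs searched for. Those found were CATGTG and CAGCTG at rept, TATAAA and CATGTG at pont, and CAGCTG at YL-1; the other stretches hold none. The positions are chr3L:19255062-19255339 (plus strand, summit at base 223) for rept, chr3R:10261850-10262122 (plus, base 157) for pont, chr3R:19403154-19403322 (minus) for Ino80, chr3L:12524140-12524340 (minus) for Gcn5, chr2L:10970276-10970442 (plus, base 158) for YL-1 and chrX:4117488-4117549 (minus) for Tip60, whose pooled summit lies just outside the stretch.
rept: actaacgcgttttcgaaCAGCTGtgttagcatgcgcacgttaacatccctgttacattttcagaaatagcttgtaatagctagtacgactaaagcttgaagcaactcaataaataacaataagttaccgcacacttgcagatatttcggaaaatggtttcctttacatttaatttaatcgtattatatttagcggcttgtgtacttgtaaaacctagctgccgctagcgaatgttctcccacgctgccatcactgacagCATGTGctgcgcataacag
pont: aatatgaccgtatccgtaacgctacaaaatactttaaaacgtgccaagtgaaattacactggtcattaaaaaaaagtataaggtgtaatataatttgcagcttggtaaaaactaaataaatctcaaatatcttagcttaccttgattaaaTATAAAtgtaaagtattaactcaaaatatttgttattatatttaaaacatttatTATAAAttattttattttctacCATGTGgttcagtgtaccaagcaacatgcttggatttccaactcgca
Ino80: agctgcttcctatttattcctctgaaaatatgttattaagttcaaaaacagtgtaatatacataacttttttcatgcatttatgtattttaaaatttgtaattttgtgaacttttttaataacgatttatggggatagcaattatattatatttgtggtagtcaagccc
Gcn5: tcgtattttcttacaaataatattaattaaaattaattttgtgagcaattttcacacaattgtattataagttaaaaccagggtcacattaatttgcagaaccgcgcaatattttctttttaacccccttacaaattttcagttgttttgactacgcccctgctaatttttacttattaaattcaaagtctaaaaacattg
YL-1: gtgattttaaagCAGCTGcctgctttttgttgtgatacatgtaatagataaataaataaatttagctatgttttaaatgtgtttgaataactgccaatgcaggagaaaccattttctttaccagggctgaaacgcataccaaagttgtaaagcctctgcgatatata
Tip60: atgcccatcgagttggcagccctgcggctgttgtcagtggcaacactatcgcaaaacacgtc

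The letters differ strongly between these promoters. Within 50 bp of the summit, pont had 14.9% G and C and Ino80 19.8%, against a median of 34.7% over the 2855 IDR promoter summits. Only 0.771% of those summits had as low a share as pont, and 5.18% as low a share as Ino80. Gcn5 had 31.7%, dom 36.6%, YL-1 40.6%, rept 46.5% and E(Pc) 48.5%. The 3 strongest of the 7 summits thus include both of these AT-rich ones and rept, above the median. For the lower-ranked summits of the pooled list the values were 41.6% at MRG15 and 51.5% at Tip60.

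CACGTG, the canonical E-box to which Max binds with Myc or Mnt, was within 50 bp of none of the 7 IDR summits, and of 4.45% of all IDR promoter summits. It was also within 250 bp of none of them, against 13.2% of all. With 7 summits a count of 0 is near either share, and nothing is read from it. The variant CATGTG lay once near rept, 37 bp from the summit and between the summit and the rept start, and once near pont, 70 bp away. CATGTG was within 50 bp of 4.03% and within 250 bp of 18.5% of IDR promoter summits. CAGCTG was within 250 bp of the rept, Gcn5, Ino80 and YL-1 summits, the nearest of these 132 bp away at Ino80, and of 30.6% of all. TATAAA lay 1 bp from the pont summit and was within 50 bp of 22.2% of all IDR promoter summits. GGTCACAC, the core promoter element Ohler 1, was within 250 bp of the summits at pont, dom and YL-1, at 118, 78 and 26 bp, and of 13.9% of all. GGTATTTT (Ohler 6) was 112 bp from the Ino80 summit and within 250 bp of 8.51% of all. The DRE, TATCGATA, was within 250 bp of none of the 7 and of 16.5% of all. The same holds for CACGCG, found near 15.6% of all, and for the GAGA-type run GAGAGAG, found near 11.5%. The element Ohler 7, CATCNCTA, was likewise within 250 bp of none of the 7, and of 401 of the 2855 IDR promoter summits. Both strands were searched, none of these motifs holds another, and a match is a run of letters, not a measured site.

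In the pooled list and in replicate 2 the paired helicase genes had the strongest sites of the 10, while in replicate 3 pont came after Ino80 and Gcn5. The rept summit (FBgn0040075, 3L from 19255340 to 19257111) had a score of 386.9 and rank 56 in replicate 2, and 207.0 and rank 125 in replicate 3. Scores are on each list's own scale, so only ranks are compared between lists. In the pooled and IDR lists the score was 590.0 and the rank 79, which is place 55 among the 2855 IDR promoter summits. Its IDR peak ran from 19255090 to 19255418, with the summit at 19255284, 56 bp upstream of the rept start.

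The pont summit (FBgn0040078, 3R from 10262123 to 10263899) ranked 162 in replicate 2, with a score of 281.2, and 822 in replicate 3, with 95.3. In the pooled list it had 374.0 and rank 282, place 211 among IDR promoter summits, in a peak from 10261849 to 10262179 with its summit 117 bp upstream of the start. The 2 helicase genes are thus closer in rank in replicate 2 (56 and 162) than in replicate 3 (125 and 822). The replicate ranks of pont differed 5.07-fold, a gap that 2.40% of the 3584 genes with an IDR promoter peak and a rank in both replicates reached, while the median gap was 1.55-fold. Inside the pont body a weak summit 861 bp past the start, in a coding exon, ranked 23164 in the pooled list.

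Next in the pooled list came the ATPase of the Ino80 complex. The Ino80 summit (FBgn0289122, 3R from 19368995 to 19403153, minus strand) ranked 406 in replicate 2 and 364 in replicate 3, with scores of 198.4 and 136.2. Pooled, it had 322.0 and rank 408, in an IDR peak from 19403102 to 19403327 with the summit 69 bp upstream of the start. A weaker pooled summit 275 bp upstream (71.7, rank 6196) lay near a replicate 2 summit of rank 4244. Replicate 3 had a single summit between the 2 pooled ones, at 134 bp upstream. The gene is 34.2 kb long, and no IDR summit lay in its body away from the start. Such a body summit was present in 40.3% of the 663 genes of 30 kb or more. In replicate 3, 5 weak summits ranked between 11251 and 17920 lay in the Ino80 body. The 1 pooled summit in the body, 32389 bp past the start (25.6, rank 24575), lay near a replicate 2 summit (rank 15406). The pooled list includes the reads of replicate 2, so this is no independent match. The −log10 q-value of that pooled summit was 0.25.

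Gcn5, the acetyltransferase of SAGA (FBgn0020388, 3L from 12521129 to 12524014, minus strand), ranked 593 in replicate 2 and 391 in replicate 3, with scores of 170.8 and 133.1. Pooled, it had 301.9 and rank 471, in a peak from 12524146 to 12524385. That summit lies 226 bp upstream of the Gcn5 start, the farthest upstream of the 7, and the replicate summits were 2 bp apart.

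The Domino ATPase gene had several summits within a short stretch. At dom (FBgn0020306, 2R from 21323430 to 21341847) the strongest summit, 40 bp inside the 5′ UTR, ranked 937 in replicate 2 and 1109 in replicate 3, with scores of 140.5 and 81.4. Its pooled score was 216.5, at rank 1019. A second IDR summit 250 bp past the start, in an intron, had 105.3 and rank 3591. Its peak, from 21323462 to 21323897, overlaps that of the strongest summit, from 21323363 to 21323597, so these need not be separate sites. Another summit lay 648 bp past the start, also in an intron, with 134.5 and rank 2414. It is outside the promoter window and the single IDR summit of the 10 genes that lay only in a gene body. All 3 were found in both replicates, that at 648 bp with ranks 1726 and 3405. With gene bodies included, the count therefore stayed at 7 of 10, against 29.5% of all genes.

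Tip60 itself ranked far lower. At the Tip60 gene (FBgn0026080, X from 4114800 to 4117487, minus strand) the pooled list had a summit 72 bp upstream of the outermost of 3 starts, with a score of 57.4 and rank 8319, and another 46 bp upstream of the innermost start, with 29.9 and rank 20035. The replicates differed in which of the 2 was stronger. In replicate 2 the outer site ranked 7572 (41.0), a further summit 275 bp upstream ranked 29517, and no inner site was listed. Replicate 3 had the inner site at rank 4492 (34.8), within the length of the IDR list, and the outer site at 12474 (18.8). The lowest score in the IDR list was 87.0, so E(Pc) at 93.8 lies just inside it and Tip60 at 57.4 is the nearest of the 10 outside it.

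Among the subunits without a catalytic role within the 10 genes, YL-1, whose yeast and human counterparts bind the matching histone variant, had the site of highest rank. The YL-1 summit (FBgn0032321, 2L from 10970443 to 10972093) ranked 5304 in replicate 2 and 1728 in replicate 3, with scores of 52.8 and 64.0. Pooled, it had 118.9 and rank 2952, in a peak from 10970215 to 10970650 with its summit 10 bp upstream of the start. The rank gap of 3.07-fold was reached by 9.68% of genes with an IDR promoter peak.

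E(Pc), Enhancer of Polycomb, a partner of Tip60 in the complex (FBgn0000581, 2R from 11452043 to 11465270), had a spread of summits over its 3 starts instead of a single site. The pooled list had 3 of them, scored 57.6, 93.8 and 63.2 at ranks 8271, 4241 and 7315, and of these the middle one, in an intron 271 bp past a start, was in the IDR list. In replicate 3 that site ranked 2097 (56.7) and a neighbour 77 bp upstream of the last start 2006 (58.7). In replicate 2 the same site ranked 9512 (34.8), and the strongest, 60 bp past the last start, 5524 (51.4). With a window of 250 bp E(Pc) is the gene that drops from the count.

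MRG15, a chromodomain protein of the complex, had a pooled summit in its 5′ UTR, 44 bp past the start, with 49.1 and rank 10217. The gene (FBgn0027378, 3R from 15276440 to 15278109, minus strand) ranked 15509 in replicate 2 and 6845 in replicate 3, with scores of 24.3 and 26.4. Both lay beyond the length of the IDR list.

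Nipped-A, the large scaffold protein shared with SAGA, stood apart. The gene (FBgn0053554, 2R from 5177965 to 5251022, minus strand) is the longest of the 10, at 73.1 kb, and its nearest pooled summit was 9152 bp from the start, the nearest IDR summit 503521 bp. In replicate 3 a weak intronic summit lay 841 bp past the start (18.3, rank 12962), outside the promoter window and not listed in replicate 2, whose nearest summit was 9155 bp away. Within 50 kb of its start the pooled list held 5 summits, against a median of 30 around all starts. Ino80, which has an IDR promoter peak, also had 5. Of the bases within 50 kb of the Nipped-A start 29.0% are masked as repeats in the reference, the highest share of the 10. The part of repeats in the lack of summits was not tested.

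**Figure D2:**
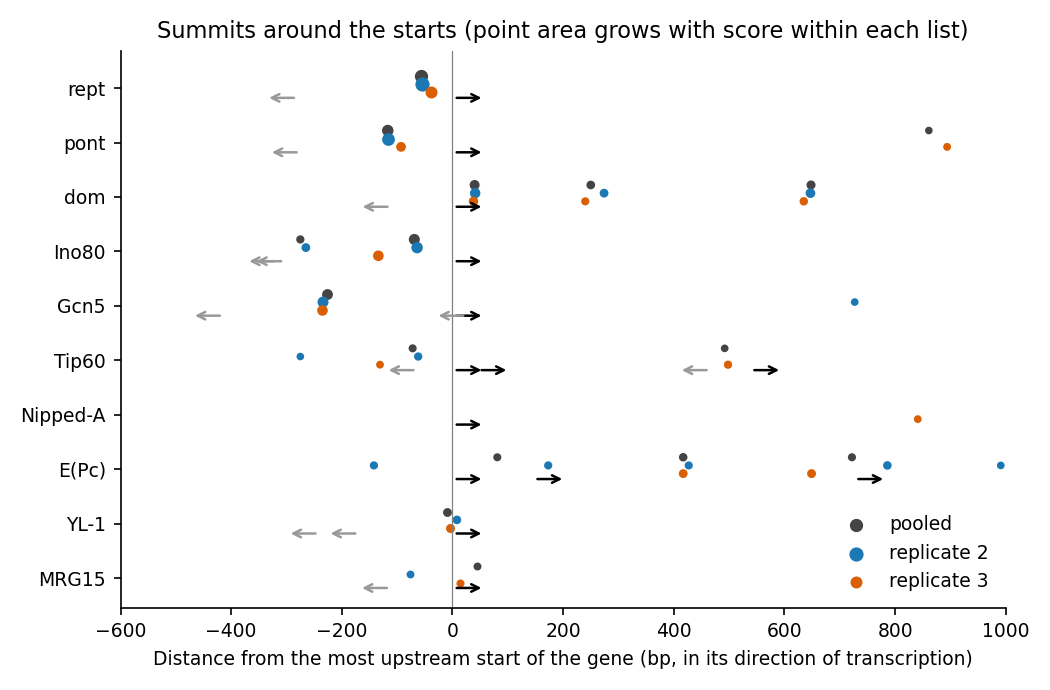
Summits in the pooled and replicate lists by distance (bp) from the most upstream start of each gene, in its direction of transcription; black arrows mark starts of the gene, grey arrows starts of the head-to-head neighbour, and point area grows with score within each list. The strongest summits of rept, pont, Ino80 and Gcn5 in each list lie between the gene's start and its neighbour's, dom has 3 groups of summits inside the gene, and E(Pc) has summits spread over its 3 starts.

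Both libraries had a summit near the IDR summit of each of the 7 genes, and they ranked several of the genes differently. Nearest replicate summits to the IDR summit were 2 bp apart at Gcn5, 3 at dom, 10 at E(Pc), 13 at YL-1, 17 at rept, 24 at pont and 70 at Ino80, against a median of 33.0 bp over 2493 summits that were the strongest IDR promoter summit of a gene. Taking the nearest summits favours small distances, for the 7 genes and for the median alike. Within the length of the IDR list in both replicates were 5 of the 10 genes (rept, pont, dom, Ino80 and Gcn5), against 20.6% of all genes. YL-1, E(Pc), Tip60 and MRG15 all ranked better in replicate 3, with gaps of 3.07-, 2.75-, 1.69- and 2.27-fold, and so did Gcn5 and Ino80 by 1.52- and 1.12-fold. For E(Pc) and Tip60 the strongest summits of the replicates are different sites. pont, rept and dom ranked better in replicate 2. In the IDR list 24.2% of peaks were narrower than the usual 436 bp, and of the 7 genes' strongest promoter peaks the 5 with the highest scores were among them, with rept at 329 bp, pont at 331, Gcn5 at 240, dom at 235 and Ino80 at 226.

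**Figure D3:**
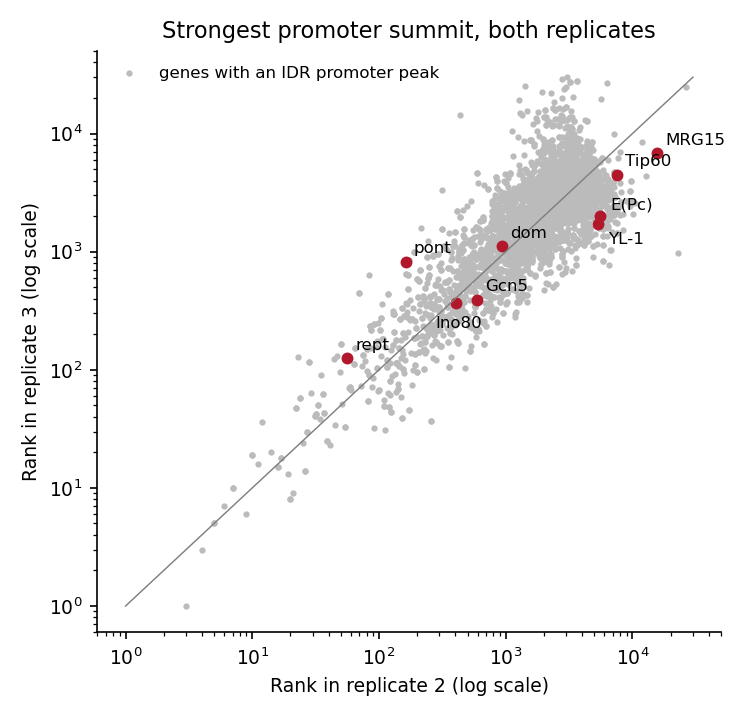
Rank of the strongest promoter summit in replicate 2 (x) and replicate 3 (y), both on log scales, for genes with an IDR promoter peak (grey) and for the 9 of the 10 genes that have one in both lists (red); the line marks equal ranks. pont lies above the line, at 162 and 822, while YL-1, E(Pc), Tip60 and MRG15 lie below it.

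Most of these sites cannot be assigned to 1 gene. Of the 7 IDR promoter summits, 6 lay within 500 bp of a start of another protein-coding gene, against 61.1% of the genes with an IDR promoter peak, and each of the 6 neighbours is transcribed away from the member. These were mRpL21, a mitochondrial ribosomal protein, beside rept, Sirt6, a sirtuin deacetylase, beside pont, Aptx, the DNA repair protein aprataxin, beside Ino80, ver, a telomere capping protein, beside Gcn5, CG30394 beside dom and Tmem214 beside YL-1. Starts were 279 bp apart at rept and mRpL21, 274 at pont and Sirt6, 302 at Ino80 and Aptx, 168 at YL-1 and Tmem214, and 110 at dom and CG30394. The summit was nearer to the member's start in 5 of the 6 pairs: 56 against 223 bp at rept, 117 against 157 at pont, 69 against 233 at Ino80, 40 against 150 at dom and 10 against 158 at YL-1. At Gcn5 it was nearer to a start of ver, 187 bp away, and in an intron of a longer ver transcript that starts inside Gcn5. Tip60 and MRG15 also have opposed neighbours: tyf, a translation activator of the circadian clock, starts 63 bp from Tip60, and Tm1, a tropomyosin, 111 bp from MRG15. Their strongest pooled summits lay just past a start instead of between the starts, 9 bp inside tyf and 44 bp inside MRG15. The weaker pooled summit at Tip60, 46 bp upstream of its innermost start, lay between that start and another start of tyf. In replicate 2 the MRG15 summit, 76 bp upstream of its start, lay between the starts of MRG15 and Tm1.

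Opposed starts are common among the 10 genes, and over all genes they go with Max-GFP sites. A head-to-head neighbour with its start within 500 bp was present for 8 of the 10, and for 27.4% of all protein-coding genes. Among all genes with such a neighbour 54.9% had an IDR promoter peak, and among those without 15.0%. Of the 8 genes with one, 6 had an IDR promoter peak, and of the 2 without, Nipped-A had none and E(Pc) did. A summit within 500 bp of both starts of such a pair counted for both genes. The part of the arrangement in the count of 7 of the 10 genes was not tested.

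By rank, the sites at the 7 genes were spread over most of the IDR promoter summits. Their scores ran from 93.8 to 590.0, in a list that reached 1561.5. The median IDR score was 301.9, against a median of 155.4 for all 3613 genes with an IDR promoter peak. Places among the 2855 IDR promoter summits were 55 for rept, 211 for pont, 303 for Ino80, 347 for Gcn5, 704 for dom, 1878 for YL-1 and 2591 for E(Pc). The helicases, the ATPases and Gcn5 thus rank above YL-1 and E(Pc), while Tip60, also an enzyme, is below the list.

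Other subunits of the same complexes, from a list written from general knowledge, had an IDR promoter peak in 10 of 31 cases (32.3%), beside 25.9% of all genes. For Tip60/Domino these were 2 of 9, His2Av, the variant histone exchanged by Domino, with 178.2 and MrgBP, a partner of MRG15, with 118.1. DMAP1, Brd8, Gas41, Bap55, Eaf6, Ing3 and Arp6 had none, with Brd8 at rank 4874 just below the IDR list. For Ino80, its actin-related subunits Arp5 and Arp8 had 215.1 and 188.5, and pho, a DNA-binding partner, ranked 4779, also just below the list. For SAGA, 6 of 19 had a peak, led by Ada2b, the SAGA-specific partner of Gcn5, with 300.5, Ada3 with 246.8 and Sgf29 with 244.2, and then e(y)2, Atxn7 and wda. The Ada2b summit lay 401 bp inside the gene. Of the other subunits with an IDR promoter peak, all but Ada2b and Atxn7 share their summit with another gene, Sgf29 with RpL29. Over all genes with such a peak 61.1% share it.

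ATAC is another complex of Gcn5, and none of the 9 genes listed under ATAC alone had an IDR promoter peak, beside 25.9% of all genes. Each gene was listed once, so subunits that ATAC shares with SAGA, such as Gcn5, are not among these 9. Of these, 6 had a pooled promoter summit, beside 57.2% of all genes, and the best of them, at wds, ranked 8619. D12 and Chrac-14 share a summit that ranked 3943 in replicate 3 and had no counterpart within 500 bp in replicate 2 or the pooled list. Against the same 25.9%, 3 of 6 other acetyltransferases had an IDR promoter peak, while chm, enok and mof had none. The 3 were Hat1 with 298.4, shared with Rpn5, Elp3 with 151.9, shared with morgue, and nej, the fly CBP, with 140.8. The nej summit lay 485 bp past a start, near the edge of the 500 bp window. In replicate 3 its strongest promoter summit was another, 322 bp upstream of a start. Among other remodellers 10 of 14 had an IDR promoter peak, a share like that of the 10 genes. These were brm, the SWI/SNF ATPase, at 562.1, Chd1 at 183.0 and XNP at 169.6, followed by kis, Acf, mor, osa, Mi-2, Etl1 and Iswi. Of these remodellers all but kis, osa and Iswi share their summit with another gene, brm with Arl1, beside 61.1% of all genes with an IDR promoter peak. Snr1, polybromo, E(bx) and Chd3 had no IDR promoter peak. Together these wider lists held 23 of 60 genes with an IDR promoter peak (38.3%).

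**Figure D4:**
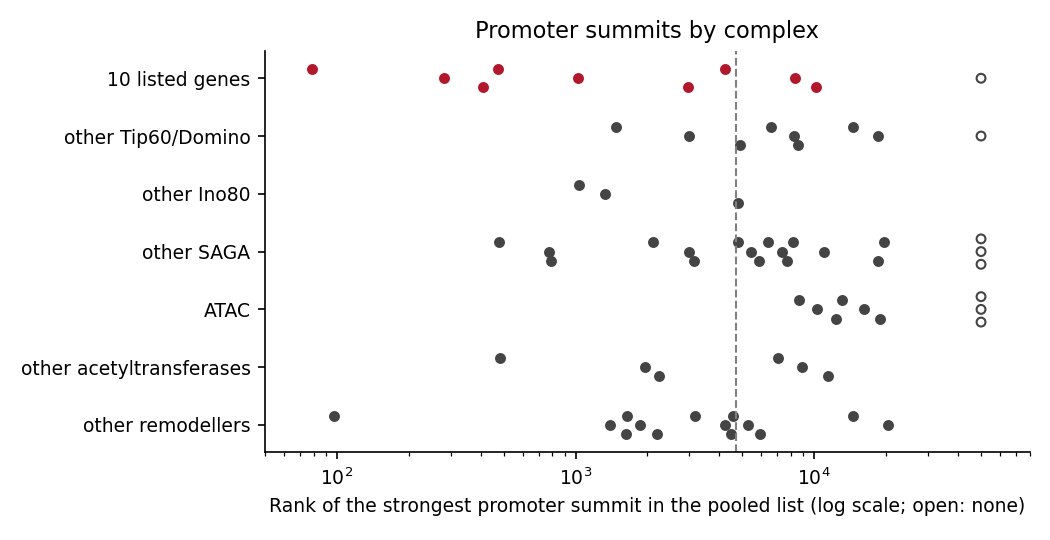
Rank of the strongest promoter summit in the pooled list (log scale) for the 10 genes (red) and for other genes of each list (black), with open points for genes without one; the dashed line marks 4712, the length of the IDR list. The remodellers and the 10 genes lie mostly left of the line, and the genes listed under ATAC alone lie right of it.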

How the data were processed

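Max-GFP ChIP-seq peaks of 2 replicates were used as deposited narrowPeak lists on dm6. Per the text listing deposited with the samples, the authors made a list from the alignment of either replicate and another from both alignments, each with 1 further file that also served for control-normalized signal, and then an IDR-thresholded list from these. The sources used here do not give the aligner or the peak caller. The deposited peak score orders peaks within a list, and the deposited −log10 q-value was not used for calls. Replicate and pooled lists were each 30000 peaks long, so their length says nothing of yield, and the 4712 IDR peaks are the pooled peaks with the highest scores. Chromatin was sonicated to 200 to 800 bp, per the labels.

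The pooled peaks lay within the arm lengths of the RefSeq genome, and starts came from Ensembl release 115. A promoter peak has its summit within 500 bp of any transcript start, and each gene took its highest-scoring one. Motifs were searched on both strands. The gene lookup was tested on planted summits. Python 3.11.15, pandas 2.3.3 and matplotlib 3.10.9 were used. No test was run, since there is 1 group. All 10 members were named, with neighbours at their summits and, of each wider list, every gene with an IDR promoter peak, with values for those of highest score; Ies2 and Ies6 were not found by name. Members and lists were chosen with earlier results of these data known. The dm3 lists were not used.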

Additional observations from a re-analysis of the deposited data

How the results depend on the processing

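Of 25 alternative values for counts above 0, 24 stayed within 1.5 times the main count. The exception was the count of genes with a promoter peak in both replicates, 5 within the length of the IDR list and 9 with all peaks of each replicate list. The count of 7 genes with an IDR promoter peak became 5 in the higher-scoring 2356 peaks, beside 15.5% of all genes. These were rept, pont, dom, Ino80 and Gcn5. The count became 6 with a 250 bp window, beside 21.9% of all genes. It stayed at 7 with a 1000 bp window, beside 28.8%, and with 1 canonical start per gene, beside 23.4%. Leaving out a replicate meant taking the highest-ranked peaks of the other replicate, to the length of the IDR list, without an IDR threshold. Without replicate 3 the count was 5, beside 26.0% of all genes. Without replicate 2 it was 8, with Tip60 added, beside 25.0% of all genes. YL-1 and E(Pc) are thus in the count from replicate 3 and not from replicate 2. Over the same settings the wider lists held between 16 and 27 of 60 genes. CACGTG was near none of the strongest promoter summits of the genes counted under any setting run, and their further summits were not searched. No paired analysis was possible because the labels give 1 group, and no comparison between groups was made. Depth is unknown, so a gene without a listed peak may still be bound.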
